A study of Mus musculus with 4 samples.

Results

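Imprinted genes are transcribed mainly from 1 parental copy, and 40 of them in 18 clusters were followed here in naive mouse embryonic stem cells with a low or a high level of the long noncoding RNA Lncenc1. The genes were taken from a list of known imprinted loci by symbol, and all 40 had a row among the 19840 genes of the deposited table. Of the 40, 23 are known to be expressed from the paternal allele, 9 from the maternal allele, and 8 in a way that depends on isoform or tissue. The reads were not split by allele, so every value is the sum over both parental copies.

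In an imprinted cluster, a differentially methylated region inherited from the egg or the sperm decides which parental copy of its neighbours is active. The mark is kept through cell division by ZFP57, which binds the methylated region and recruits TRIM28 and histone methyltransferases, together with the maintenance methyltransferase DNMT1 and its cofactor UHRF1. Many of the genes regulate growth of the fetus and placenta, and several clusters are silenced by a long noncoding RNA made from the paternal copy. Culture in 2i/LIF, a medium of kinase inhibitors with leukaemia inhibitory factor, is known to lower DNA methylation in stem cells, and imprints can be lost in it over time.

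The study infected ground-state cells with a pLKO.1 lentivirus carrying a short hairpin against Lncenc1 (shLincenc1 in the labels) or a control hairpin (shCtrl), with 2 libraries in each group, and selected them with puromycin for 2 days. All 4 libraries thus share the 2i/LIF medium, the infection and the selection. The protocols name the lines E14TG2a and R1 and a pair of hairpins per target, and the labels do not say which line or hairpin a library holds, nor whether a group's libraries came from separate cultures. The p-values thus measure only the spread of these libraries, which may be technical.

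The deposited table gives a single comparison without naming its numerator. Lncenc1, the targeted RNA, had 2126 and 2121 normalized reads in the libraries L1 and L2, against 6400 and 7250 in H1 and H2. These pairs are called the Lncenc1-low and the Lncenc1-high group, and fold changes below run high over low, so that a negative one means more RNA in the Lncenc1-low group. For Lncenc1 itself the log2 fold change in the authors' deposited table was 1.68 ± 0.19 (SE), with a DESeq2 adjusted p of 2.67e-16. Which hairpin a group carried is not stated by the table, and the grouping by Lncenc1 level cannot serve as a check of the knockdown. Read counts per library, recovered from the deposited means as described under processing, summed to 11107878 and 10545748 in L1 and L2 and to 26423404 and 10945878 in H1 and H2. The stem cell markers Pou5f1, Sox2, Nanog, Klf4, Esrrb, Zfp42, Tfcp2l1 and Tdgf1 were all tested, with 0 called by DESeq2 in the authors' deposited table. Of these markers 1, Nanog, was higher in the Lncenc1-high group at a DESeq2 unadjusted p under 0.05 (3.54% of all genes). Their summed level was 63838 and 62312 normalized reads in L1 and L2, against 76933 and 70806 in H1 and H2, and for 6 of the 8 both Lncenc1-high libraries lay above both Lncenc1-low ones, which held for 20.6% of all genes with recovered counts.

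Promoter sequence is shown for 3 starts to which the measurements below refer, from RefSeq on the build GRCm38.p6. The Meg3 start is shown because the maternal RNAs downstream of it varied together between libraries. The Mest start is an example of a promoter known to be methylated on the maternal copy, and the stretch between Peg3 and Usp29 is shared by a head-to-head pair. The Meg3 stretch is chr12:109540746-109540995, the Mest stretch chr6:30737800-30738049 and the Peg3 to Usp29 stretch chr7:6730432-6730577. All are on the plus strand and hold only bases before the start that no annotated exon covers. Capitals mark TGCCGC, the letters that ZFP57 reads when they are methylated, or their complement GCGGCA.
Meg3: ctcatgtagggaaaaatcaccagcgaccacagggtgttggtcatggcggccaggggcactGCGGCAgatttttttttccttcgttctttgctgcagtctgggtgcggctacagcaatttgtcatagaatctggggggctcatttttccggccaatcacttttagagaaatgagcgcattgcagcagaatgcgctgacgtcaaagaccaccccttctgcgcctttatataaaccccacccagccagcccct
Mest: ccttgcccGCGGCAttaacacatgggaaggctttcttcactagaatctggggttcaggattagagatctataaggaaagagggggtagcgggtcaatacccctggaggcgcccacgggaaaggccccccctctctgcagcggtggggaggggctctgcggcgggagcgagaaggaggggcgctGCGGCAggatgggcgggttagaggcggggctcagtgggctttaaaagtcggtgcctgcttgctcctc
Peg3 to Usp29: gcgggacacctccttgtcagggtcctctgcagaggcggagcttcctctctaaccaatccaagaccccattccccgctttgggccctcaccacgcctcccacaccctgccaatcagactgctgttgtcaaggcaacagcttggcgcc

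The Mest stretch holds 2 such matches and 14 CpG in 250 bases, the Meg3 stretch 1 match and 10 CpG in 250 bases, and the Peg3 to Usp29 stretch 0 matches and 5 CpG in 146 bases. RefSeq windows of 300 bases, from 250 before to 50 after a start, were matched by symbol for 31 of the 40 genes, and H19, Rtl1, Peg10, Sgce, Cdkn1c, Impact, Peg13, Trappc9 and Nespas had none in the table used. For a gene with several windows, the stretch printed came from the one with most matches, then most CpG. Meg3 had 2 windows, 1 of them with a match, and Mest had 3, with a match in 2. Of the 31, 11 had TGCCGC on either strand in at least 1 window (35.5%), against 13.1% of all 27025 genes with a window. The 11 were Igf2, Meg3, Zim1, Mest, Snrpn, Commd1, Nnat, Plagl1, Grb10, Zdbf2 and Mcts2. The median CpG number was 15 over the windows of imprinted genes and 7 over all windows. A match is a description of the letters and not of binding.

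Of the 40 genes, 32 had enough reads for the authors' adjusted p, which no gene with a mean under 8.36 received, and 8 did not. Peg10 alone was called at a DESeq2 adjusted p under 0.05, with more RNA in the Lncenc1-low group. That is 1 of 32 (3.12%), against 1.53% of all 14070 genes tested in either direction and 1.02% toward the Lncenc1-low group. At an unadjusted p under 0.05, 4 of the 32 were higher in the Lncenc1-low group (Peg10, Peg3, Sgce and Rtl1), against 5.28% of all genes. Slc22a18 and Plagl1 were the 2 higher in the Lncenc1-high group at that level, against 3.54% of all genes. Both low libraries lay above both high libraries for 11 of the 32, against 20.7% of all genes with recovered counts, and the reverse held for 5 of the 32, against 20.6%. The median log2 fold change of the 32 in the authors' deposited table was 0.03, with 15 negative and 17 positive, against -0.01 over all genes tested, and it turned to -0.0103 in a refit scaled by library totals.

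**Figure D1:**
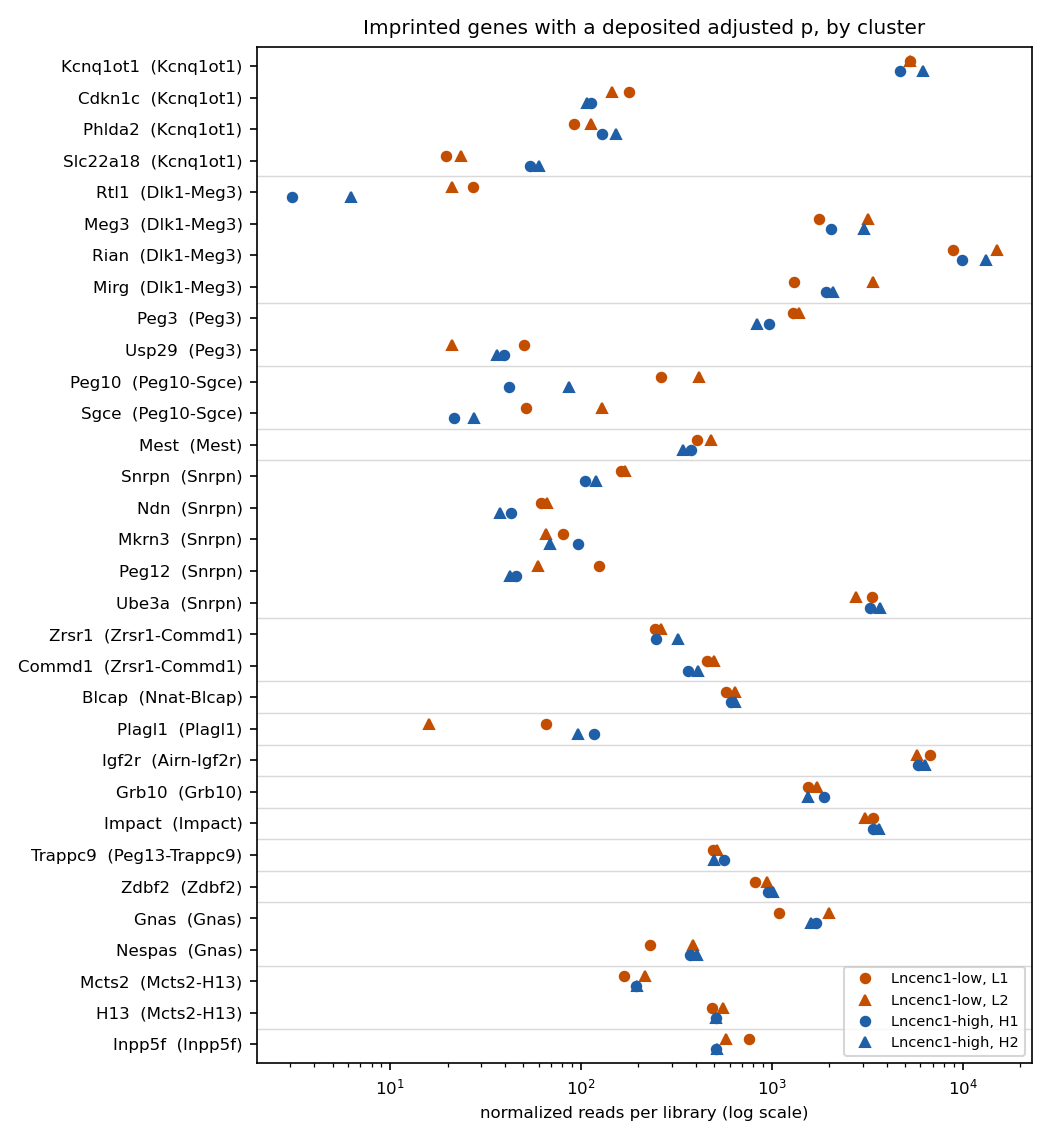
Normalized reads per library (x axis, log scale) of the 32 imprinted genes with a deposited adjusted p, one row per gene with its cluster in brackets; orange marks the Lncenc1-low libraries L1 and L2 and blue the Lncenc1-high libraries H1 and H2. Peg10, Sgce and Rtl1 show orange points to the right of blue ones, Slc22a18 and Plagl1 the reverse, and most other rows overlap or nearly so.

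Peg10 and Sgce are expressed from the paternal copy, head to head from a shared promoter region. Peg10 encodes a protein derived from a retrotransposon that the mouse placenta requires, and Sgce encodes epsilon-sarcoglycan, a membrane protein. Peg10 had 263.7 and 416.5 normalized reads in L1 and L2, against 42.1 and 86.6 in H1 and H2. The 2 groups did not overlap, and each group's libraries differed from each other as well, by 1.58-fold in the Lncenc1-low and 2.06-fold in the Lncenc1-high group. The mean was 340 ± 108 in the Lncenc1-low and 64.3 ± 31.4 in the Lncenc1-high group (SD, n = 2 each). For Peg10 (ENSMUSG00000092035.7) the authors' deposited table gives a log2 fold change of -2.43 ± 0.43 (SE), a 5.41-fold difference, with a DESeq2 adjusted p of 8.23e-06. By p it ranked 19 among the 14070 genes tested.

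Sgce had 51.8 and 128.5 normalized reads in L1 and L2, against 21.6 and 27.6 in H1 and H2. L2 was highest for both genes of the pair, and for both the Lncenc1-low libraries lay above the Lncenc1-high ones. For Sgce the deposited log2 fold change was -1.89 ± 0.65 (SE), with a DESeq2 adjusted p of 0.15 in the authors' deposited table, so the difference did not pass over all genes. In a negative binomial refit without 1 library in turn, the log2 fold change of Peg10 lay between -3.01 without H2 and -1.97 without H1, and Peg10 remained called each time (adjusted p from 8.41e-06 to 0.0488). Limma voom on the recovered counts gave Peg10 -2.63 with an adjusted p of 0.146. That test called 0 of the 32 genes, and only 6 of all 14043 genes in it. At an unadjusted voom p under 0.05 there were 6 of the 32, against 10.2% of all genes in that test. Without L2 the refitted value of Sgce was -1.09, and without L1 it was -2.40.

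Peg10 is abundant in trophoblast, and markers of other cell types were therefore summed. Of 11 trophoblast markers 10 had a row, Elf5 had none, and the summed level was 1022 and 959 normalized reads in L1 and L2, against 717 and 514 in H1 and H2. In every library most of this sum was a single gene, Tfap2c. At an unadjusted p under 0.05, 4 of the 7 tested had more RNA in the Lncenc1-low group (5.28% of all genes) and 1 in the Lncenc1-high group (3.54% of all genes). Rhox6, an X-linked homeobox gene, was the 1 of the 7 that was called (1.02% of all genes toward the Lncenc1-low group). It stood at -3.51 ± 0.68 (SE) in the authors' deposited table, with a DESeq2 adjusted p of 8.33e-05. The trophoblast regulator Cdx2 ran the other way, with 2.47 and 19.8 normalized reads in L1 and L2, against 40.04 and 87.8 in H1 and H2 (deposited log2 fold change 2.51 ± 0.90, SE, DESeq2 adjusted p = 0.177 in the authors' deposited table). Krt7, a keratin gene, had 23.4 and 35.8 normalized reads in L1 and L2, against 4.62 and 1.25 in H1 and H2 (-3.22 ± 1.17, SE, DESeq2 adjusted p = 0.197 in the authors' deposited table). A count of 0 allows up to 3.7 normalized reads in L1 and 3.76 in H2, and Cdx2 in L1 and Krt7 in H2 lay under these limits. Both Lncenc1-low libraries lay above both Lncenc1-high ones for 4 of the 7 tested, Rhox6, Krt7, Rhox9 and Tfap2c (20.7% of all genes with recovered counts). Rhox9 stood at 46.8 and 22.2 in L1 and L2 against 3.59 and 11.3 in H1 and H2, and Tfap2c at 809.6 and 669.8 against 594.5 and 298.6. The groups overlapped for Ascl2 and Eomes. Gata3 had 2.47 and 3.71 normalized reads in L1 and L2 and 0 in H1 and H2, and Hand1 3.70 in L1 and 0 elsewhere. Of 11 fibroblast markers 7 had a row and 4 were tested, with 0 called by DESeq2 in the authors' deposited table. Of those tested 1, Fbn1, was higher in the Lncenc1-low group at a DESeq2 unadjusted p under 0.05 (5.28% of all genes). The sum over the 7 was 397 and 259.5 normalized reads in L1 and L2, against 176 and 147 in H1 and H2, and most of it in every library was Fbn1. Of the 4 tested, Fbn1, Thy1 and Twist1 had both Lncenc1-low libraries above both Lncenc1-high ones (20.7% of all genes with recovered counts). Fbn1 had 324 and 174 normalized reads in L1 and L2, against 140.1 and 110.4 in H1 and H2, Thy1 had 40.7 and 18.5 against 10.3 and 12.5, and Twist1 17.25 and 37.1 against 14.4 and 10.04. The collagen gene Col1a2 overlapped, at 6.16 and 18.5 in L1 and L2, against 6.67 and 12.5 in H1 and H2. The other collagens were not tested, with Col1a1 at 1.23 and 11.1 in L1 and L2 and 2.05 and 1.25 in H1 and H2, and Col3a1 at 2.47 in L1, 2.05 in H1 and 0 in L2 and H2, and Col6a1 at 4.93 in L1 and 0 elsewhere. The part of these cell types in the Peg10 difference was not tested. In bulk RNA, fewer cells of a type and less RNA per cell cannot be told apart.

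**Figure D2:**
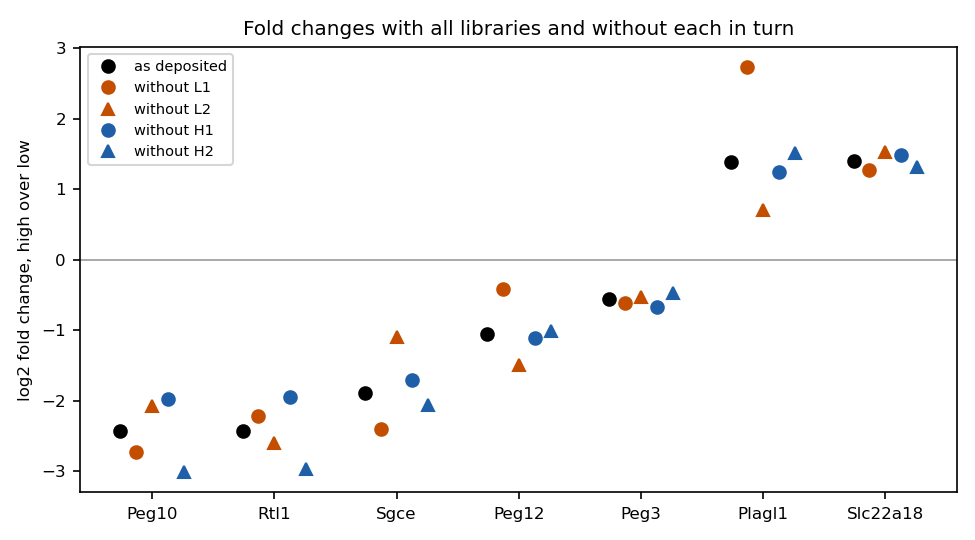
Log2 fold change, Lncenc1-high over Lncenc1-low (y axis), of 7 imprinted genes as deposited (black) and in refits without L1 or L2 (orange) and without H1 or H2 (blue). Peg10 stays between -3.01 and -1.97, while Plagl1 spans 0.71 without L2 to 2.73 without L1.

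The Dlk1-Meg3 cluster makes 3 long noncoding RNAs, Meg3, Rian and Mirg, from the maternal copy, and the proteins DLK1 and RTL1 from the paternal copy. Rian carries small nucleolar RNAs and Mirg carries microRNAs. Meg3 had 1773 and 3179 normalized reads in L1 and L2, against 2051 and 3032 in H1 and H2. Rian had 8838 and 15074 in L1 and L2, against 9923 and 13265 in H1 and H2, and Mirg had 1304 and 3380, against 1932 and 2101. All 3 RNAs were ordered alike, lowest in L1, then H1, then H2 and highest in L2, so the groups interleaved.

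The differences inside the Lncenc1-low group, 1.79-fold for Meg3, 1.71-fold for Rian and 2.59-fold for Mirg, were larger than those between the groups. The deposited log2 fold changes were 0.04 ± 0.28 (SE) for Meg3, -0.04 ± 0.25 (SE) for Rian and -0.22 ± 0.66 (SE) for Mirg, with DESeq2 adjusted p of 0.999 each in the authors' deposited table. The 3 RNAs are neighbours that may be parts of one long transcript, so they are not independent readings. At a difference of at least 1.5-fold between the libraries of a group, L2 exceeded L1 for 7 of the 32 imprinted genes (16.5% of all genes with recovered counts), namely the 3 RNAs with Gnas, Nespas, Peg10 and Sgce. L1 exceeded L2 for 3 of the 32, Usp29, Peg12 and Plagl1 (15.1% of all). Between the Lncenc1-high libraries, H2 exceeded H1 for 2, Peg10 and Rtl1 (7.8% of all), and H1 exceeded H2 for 0 (9.69% of all).

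Rtl1, a retrotransposon-derived gene needed in the fetal vessels of the placenta, had 27.1 and 21.0 normalized reads in L1 and L2, against 3.08 and 6.27 in H1 and H2. These rested on 22 and 17 reads in L1 and L2, and on 6 and 5 reads in H1 and H2. The groups did not overlap. The deposited log2 fold change of Rtl1 was -2.42 ± 1.17 (SE), with a DESeq2 adjusted p of 0.515 in the authors' deposited table. A maternal transcript runs antisense to Rtl1, and since no source used here gives the strand setting of the counting, reads of the 2 strands cannot be told apart. Dlk1, a transmembrane ligand, had 3 reads in L1 and 0 in L2, H1 and H2. A count of 0 allows up to 3.71 normalized reads in L2, 1.54 in H1 and 3.76 in H2, so no difference was detectable at this depth.

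**Figure D3:**
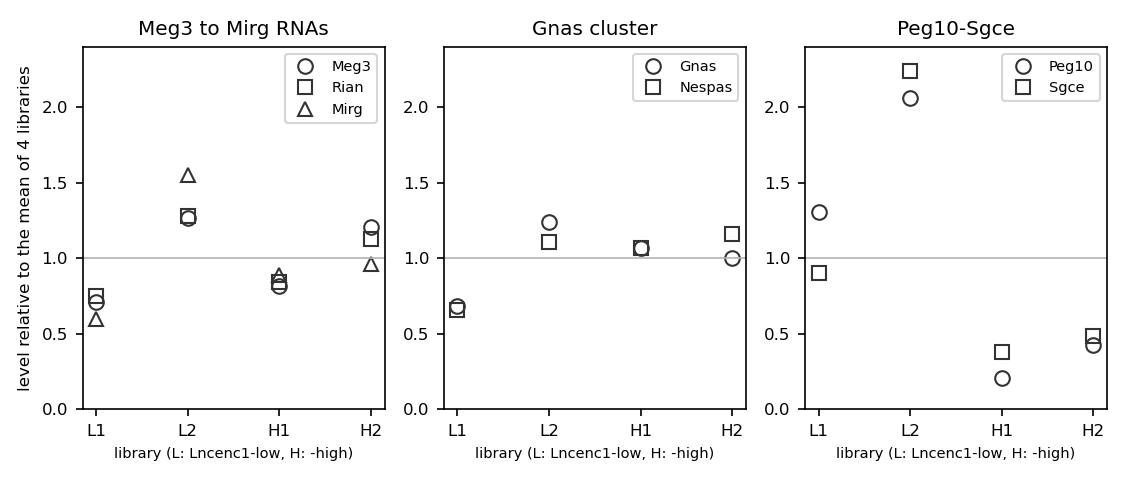
Level in each library relative to the mean of the 4 libraries (y axis), for the maternal RNAs of the Dlk1-Meg3 cluster, for Gnas and Nespas, and for Peg10 and Sgce. The maternal RNAs are lowest in L1 and highest in L2, Gnas and Nespas are lowest in L1, and Peg10 and Sgce are above the Lncenc1-high libraries in both Lncenc1-low libraries.

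At the Gnas locus, Nespas is a paternal RNA antisense to the maternal transcript Nesp, and Gnas encodes the stimulatory G protein subunit with isoforms of either parental origin. Gnas had 1093 and 1984 normalized reads in L1 and L2, against 1705 and 1601 in H1 and H2. Nespas had 230 and 387 in L1 and L2, against 374 and 407 in H1 and H2. L1 was the lowest library for both genes, while the other 3 libraries lay close together. The authors' deposited table puts Gnas at a log2 fold change of 0.10 ± 0.27 (SE) and Nespas at 0.34 ± 0.32 (SE), and neither passed (DESeq2 adjusted p of 0.999 and 0.949).

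In the Kcnq1ot1 cluster the paternal RNA Kcnq1ot1 silences its neighbours, which are active on the maternal copy. Kcnq1ot1 had 5271 and 5296 normalized reads in L1 and L2, against 4670 and 6202 in H1 and H2, so the Lncenc1-high libraries enclosed the Lncenc1-low ones. Its log2 fold change in the authors' deposited table was 0.04 ± 0.20 (SE). None of its 3 neighbours among the 40 genes was called by DESeq2 in that table. Slc22a18, a membrane transporter gene, had 19.7 and 23.5 normalized reads in L1 and L2, against 53.9 and 60.2 in H1 and H2. Each group was tight and the groups stood apart, on 16 and 19 reads in L1 and L2 and on 105 and 48 reads in H1 and H2. For Slc22a18 the deposited log2 fold change was 1.40 ± 0.70 (SE), with an unadjusted p of 0.0469 and a DESeq2 adjusted p of 0.557 in the authors' deposited table. In refits without 1 library its value stayed between 1.28 and 1.53, with no call.

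Phlda2, a brake on placental growth, had 92.4 and 112.5 normalized reads in L1 and L2, against 128 and 152 in H1 and H2. Cdkn1c, the cell cycle inhibitor p57, ran the other way, with 177.5 and 144.6 in L1 and L2, against 113.5 and 107.9 in H1 and H2. Neither passed, at 0.45 ± 0.42 (SE) for Phlda2 and -0.54 ± 0.40 (SE) for Cdkn1c in the authors' deposited table (DESeq2 adjusted p of 0.949 and 0.851).

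Of the neighbouring H19-Igf2 cluster almost nothing was seen. The maternal RNA H19 had 3 reads in H1 and 0 in L1, L2 and H2. The fetal growth factor gene Igf2 had 2 and 1 reads in L1 and L2, against 9 and 0 in H1 and H2. Neither received an adjusted p, and at this depth a difference was not detectable.

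In the Peg3 cluster, the paternal zinc finger gene Peg3 had 1293 and 1382 normalized reads in L1 and L2, against 968 and 838 in H1 and H2. Both groups were narrow and did not overlap, at 1337 ± 62.9 in the Lncenc1-low and 903 ± 91.7 in the Lncenc1-high group (SD, n = 2 each). The authors' deposited table gives Peg3 a log2 fold change of -0.56 ± 0.22 (SE), with an unadjusted p of 0.0091 and a DESeq2 adjusted p of 0.241. Without 1 library the refitted value lay between -0.67 and -0.47, uncalled each time.

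Usp29, a deubiquitinase gene that starts across the printed stretch from Peg3, had 50.5 and 21.0 normalized reads in L1 and L2, against 39.5 and 36.4 in H1 and H2. The Lncenc1-low libraries enclosed the Lncenc1-high ones, and the deposited log2 fold change was 0.09 ± 0.75 (SE), with a DESeq2 adjusted p of 0.999 in the authors' deposited table. The difference in fold change between Peg3 and Usp29 was not tested, and the value of Peg3 lies within 1 SE of that of Usp29. Zim1, a maternal zinc finger gene of the cluster, had 8 and 8 reads in L1 and L2, against 11 and 1 in H1 and H2, too few for an adjusted p.

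The Snrpn cluster, deleted or silenced in Prader-Willi and Angelman syndromes in humans, is mostly paternal. Snrpn, a spliceosome protein gene, had 163 and 169 normalized reads in L1 and L2, against 105 and 120 in H1 and H2. Ndn, coding for the MAGE protein necdin, had 61.6 and 66.7 in L1 and L2, against 43.1 and 37.6 in H1 and H2. Both genes had their Lncenc1-low libraries above the Lncenc1-high ones, at log2 fold changes of -0.56 ± 0.40 (SE) for Snrpn and -0.66 ± 0.60 (SE) for Ndn. Neither passed in the authors' deposited table (DESeq2 adjusted p of 0.817 and 0.939).

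Peg12, a Frat family gene also known as Frat3, had 124.5 and 59.3 normalized reads in L1 and L2, against 45.7 and 42.7 in H1 and H2. Its deposited log2 fold change was -1.05 ± 0.58 (SE), with a DESeq2 adjusted p of 0.651 in the authors' deposited table, and without L1 the refitted value was -0.42. Mkrn3, a ubiquitin ligase gene, overlapped between the groups, with 80.1 and 65.5 normalized reads in L1 and L2, against 96.0 and 69.0 in H1 and H2. Magel2 had 5 and 1 reads in L1 and L2, against 0 and 2 in H1 and H2, with no adjusted p. Ube3a, the Angelman ubiquitin ligase gene, is maternal in neurons and biallelic in most other cells. Its 3361 and 2744 normalized reads in L1 and L2 overlapped the 3272 and 3700 in H1 and H2. In the authors' deposited table the 5 tested genes of the cluster among the 40 had log2 fold changes from -1.05 to 0.19, their median being -0.56. Of these 5, 0 were called by DESeq2, with 0 at an unadjusted p under 0.05.

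Plagl1, a paternal zinc finger gene that restrains proliferation, had 65.3 and 16.1 normalized reads in L1 and L2, against 116.5 and 96.6 in H1 and H2. Both Lncenc1-high libraries were above both Lncenc1-low ones, and L2 was far below L1, by 4.07-fold. The deposited log2 fold change of Plagl1 was 1.39 ± 0.64 (SE), with an unadjusted p of 0.0299 and a DESeq2 adjusted p of 0.46 in the authors' deposited table. The refit gave 0.71 without L2 and 2.73 without L1 (adjusted p of 1 and 0.0772), so the size of this difference rested on which Lncenc1-low library was kept. Of 10 primitive endoderm markers 9 had a row and 5 were tested, with 0 called by DESeq2 in the authors' deposited table and 0 at an unadjusted p under 0.05. Their summed level was 2580 and 1170 normalized reads in L1 and L2, against 3293 and 4358 in H1 and H2, and most of it was Lama1, at 2402 and 986 against 3167 and 4257. The markers differed in direction. Col4a1 had 89.96 and 107.5 in L1 and L2, against 60.6 and 32.6 in H1 and H2, and Dab2 28.3 and 19.8 against 10.8 and 2.51. The value of Dab2 in H2 lay under the 3.76 normalized reads that a count of 0 allows there. Of the 5 tested, 2 had both Lncenc1-low libraries higher (20.7% of all genes with recovered counts) and 2 both Lncenc1-high ones (20.6%). The median log2 fold change of the 5 in the authors' deposited table was -0.21. The part of these cells in the Plagl1 difference was not tested, and Gata6, Sox17, Sox7 and Foxa2 were each at or under 7.394 normalized reads in every library. Of 7 neural markers, 5 were tested and 0 called by DESeq2 in the authors' deposited table, with 0 at an unadjusted p under 0.05. The sum over the 7 was 2405 and 746.5 normalized reads in L1 and L2, against 1729 and 1085 in H1 and H2. Most of this sum was Tubb3, at 2231 and 506.7 against 1516 and 967.2, with overlapping groups. The 3 neural markers with the smallest p, Neurod1, Map2 and Sox1, had deposited log2 fold changes of -1.20 ± 1.35, -0.34 ± 0.42 and -0.78 ± 1.64 (SE). Over the 5 tested the deposited values ran from -1.2 to 0.329. Sox1 had 4.93 and 19.8 normalized reads in L1 and L2, against 13.9 and 0 in H1 and H2. Pax6 overlapped, at 27.1 and 40.8 in L1 and L2, against 80.1 and 3.76 in H1 and H2.

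Mest, a paternal hydrolase gene expressed widely in the embryo, had 405 and 481 normalized reads in L1 and L2, against 375 and 344 in H1 and H2. The deposited log2 fold change was -0.30 ± 0.28 (SE), with a DESeq2 adjusted p of 0.942 in the authors' deposited table. Inpp5f, a phosphoinositide phosphatase gene with a paternal isoform in brain, had 759 and 573 in L1 and L2, against 512 and 514 in H1 and H2, at -0.38 ± 0.26 (SE) in the authors' deposited table (DESeq2 adjusted p = 0.795). Neither gene's groups overlapped, and neither passed.

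Several paternal genes are nested in the intron of a host, and the strand or splice form of a read was not available to separate them. The retrogene Zrsr1, a splicing factor copy inside Commd1, had 245 and 263 normalized reads in L1 and L2, against 247 and 321 in H1 and H2, while Commd1, a regulator of copper handling, had 457 and 496, against 364.5 and 409.0. Mcts2, a retrogene inside H13, had 169 and 217.5 in L1 and L2, against 195 and 197 in H1 and H2. H13, coding for signal peptide peptidase, had 483 and 552, against 507 and 508. Reads of the retrogenes can be shared with their near-identical parents, so both levels are uncertain. Airn and Igf2r, Kcnq1ot1 and Kcnq1, and Nespas and Gnas overlap on opposite strands, and their reads cannot be told apart without the strand setting.

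Blcap, whose intron holds Nnat, had 573 and 641 normalized reads in L1 and L2, against 608 and 641 in H1 and H2. The neural proteolipid gene Nnat had 4 and 0 reads in L1 and L2, against 2 and 1 in H1 and H2. Trappc9, a vesicle transport gene, had 493 and 515 normalized reads in L1 and L2, against 561 and 498 in H1 and H2, and the noncoding Peg13 in its intron had 0 and 10 reads in L1 and L2, against 5 and 3 in H1 and H2. Of these hosts and nested genes, Nnat and Peg13 received no adjusted p. Zrsr1, Commd1, Mcts2, H13, Blcap and Trappc9 had deposited log2 fold changes between -0.30 and 0.16 and DESeq2 adjusted p of at least 0.931 in the authors' deposited table.

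The remaining loci gave overlapping or nearly equal groups. Igf2r, the receptor that clears IGF2, had 6706 and 5755 normalized reads in L1 and L2, against 5820 and 6333 in H1 and H2. The paternal RNA Airn, which silences the paternal copy of Igf2r in many tissues, had 8 and 0 reads in L1 and L2, against 2 and 3 in H1 and H2. Grb10, a growth-restraining adaptor that is maternal in most tissues and paternal in neurons, had 1554 and 1714 normalized reads in L1 and L2, against 1875 and 1546 in H1 and H2. Impact, an inhibitor of the GCN2 kinase, had 3369 and 3066, against 3389 and 3620. Zdbf2, a paternal zinc finger gene, had 812 and 943 in L1 and L2, against 952 and 1012 in H1 and H2. For Impact and Zdbf2 both Lncenc1-high libraries were just above both Lncenc1-low ones, and for the others the groups overlapped. The authors' deposited table puts the log2 fold change at -0.04 ± 0.19 (SE) for Igf2r, 0.07 ± 0.21 (SE) for Grb10, 0.12 ± 0.19 (SE) for Impact and 0.16 ± 0.22 (SE) for Zdbf2, with DESeq2 adjusted p from 0.987 to 0.999.

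**Figure D4:**
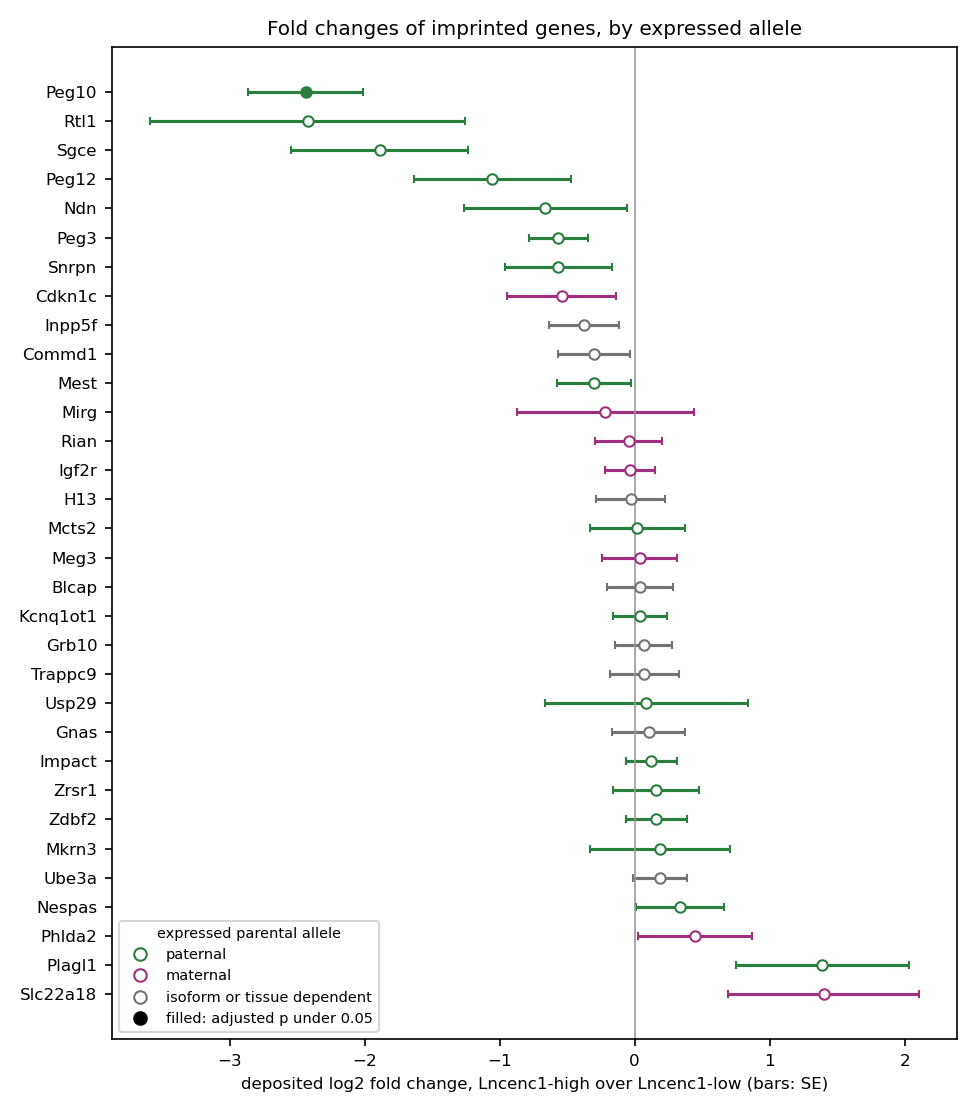
Deposited log2 fold change, Lncenc1-high over Lncenc1-low, with its SE (x axis) for the 32 imprinted genes with an adjusted p, ordered by value and coloured by the parental allele known to be expressed. Peg10, the filled point, is the 1 gene called, and the genes of each allelic class lie on both sides of 0.

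By parental origin, the 17 tested paternal genes had a median log2 fold change of 0.02 in the authors' deposited table, with 8 negative and 9 positive. The 7 maternal genes had a median of -0.04, with 4 negative and 3 positive, and the 8 genes whose allele depends on isoform or tissue had 0.05, with 3 negative and 5 positive. The values with the largest size in each direction were those of Peg10 at -2.43 among paternal and Slc22a18 at 1.40 among maternal genes in the authors' deposited table. A difference between allelic classes was not tested. These medians are close to the shift that scaling makes, since scaling by library totals puts the median of all genes at -0.04.

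Per kilobase of exon, the mean level over the 4 libraries was highest for Igf2r at 661 normalized reads per kilobase, Impact at 655 and Rian at 646. Their library values spanned 618 to 720.5, 598 to 706 and 485 to 827, so the order of the 3 is within their spread. Mirg followed at 299, Mcts2 at 213, Blcap at 202 and Grb10 at 184 normalized reads per kilobase. Meg3 stood at 139, Peg10 at 30.3 and Sgce at 5.40, and Rtl1 at 2.26 and Usp29 at 2.04 were the lowest of the 32 tested.

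Genes that keep or set imprints were described from a list of 30, all of them tested. DESeq2 in the authors' deposited table called 1 higher in the Lncenc1-low group, Kdm1b, and 1 higher in the Lncenc1-high group, Tet2, against 1.53% of all genes in either direction. Tet2, an enzyme that oxidizes methylcytosine, had 1989 and 2087 normalized reads in L1 and L2, against 4381 and 3339 in H1 and H2. The authors' deposited table gives Tet2 a log2 fold change of 0.92 ± 0.21 (SE), with a DESeq2 adjusted p of 0.00215. Kdm1b, a histone demethylase needed to set maternal imprints in mouse oocytes, had 617 and 442 in L1 and L2, against 282 and 252 in H1 and H2, at -0.98 ± 0.29 (SE) with a DESeq2 adjusted p of 0.0497 in the authors' deposited table. The refit did not call Tet2 without H1, and did not call Kdm1b with all libraries or without any 1 of them.

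The methyltransferase gene Dnmt3b had 2147 and 4085 normalized reads in L1 and L2, against 1749 and 2049 in H1 and H2. Its log2 fold change was -0.72 ± 0.27 (SE), with a DESeq2 adjusted p of 0.231 in the authors' deposited table. Zfp57, Trim28, Dnmt1 and Uhrf1, singled out for their part in keeping imprints, stood in the authors' deposited table at log2 fold changes of 0.13 ± 0.22, -0.28 ± 0.17, 0.11 ± 0.19 and 0.36 ± 0.19 (SE), and none of the 4 was called (DESeq2 adjusted p from 0.58 to 0.995). Zfp57 had 3481 and 4913 normalized reads in L1 and L2, against 4223 and 4992 in H1 and H2, so its groups overlapped, as did those of Dnmt1. Trim28 had both Lncenc1-low libraries higher, at 27234 and 29234 in L1 and L2, against 23482 and 22970 in H1 and H2 (20.7% of all genes with recovered counts). For Uhrf1 both Lncenc1-high libraries were higher, at 7002 and 6847 in L1 and L2, against 9648 and 8100 in H1 and H2 (20.6% of all).

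Of 45 further imprinted genes, 35 had a row and 31 were tested, with 1 called by DESeq2 in the authors' deposited table, Ntm, higher in the Lncenc1-low group (1.02% of all genes). Ntm, coding for the neural adhesion molecule neurotrimin, had 49.3 and 79.1 normalized reads in L1 and L2, against 2.57 and 13.8 in H1 and H2. The authors' deposited table gives it a log2 fold change of -3.09 ± 0.88 (SE), with a DESeq2 adjusted p of 0.0343, and the refit called it without H2 and not without H1, L1 or L2. Sfmbt2, a Polycomb-related gene that is paternal in mouse placenta, had 943 and 1504 in L1 and L2, against 773 and 613 in H1 and H2 (-0.82 ± 0.27, SE, DESeq2 adjusted p = 0.11 in the authors' deposited table). Ddc, an amino acid decarboxylase gene, had 285 and 127 in L1 and L2, against 436 and 324 in H1 and H2 (0.89 ± 0.39, SE, DESeq2 adjusted p = 0.397 in the authors' deposited table). The median over the 31 was -0.12, from -3.09 to 0.98, in the authors' deposited table.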

How the data were processed

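RNA of 4 libraries was depleted of ribosomal RNA and sequenced strand-specifically, per the labels' protocols. For the authors' processing, the submitters' processing notes list the aligner TopHat2, the counter HTSeq, the package DESeq2 1.8.2 and the build mm9, with neither order nor settings. No source used here gives the annotation or strand setting.

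The deposited table gives, per the file headers, a mean normalized read count over all libraries (a signal), the authors' log2 fold change with its SE, a Wald statistic (a score), and the authors' p-value and adjusted p-value. Genes were named by Ensembl identifier without version (19707 of 19840 matched). The authors' adjusted p under 0.05, fitted across all genes, was the main test. A count model on deposited libraries, planned in case the table held them, could not be fitted.

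Each mean is a sum of 4 whole counts times a fixed step per library. Steps came from recurring low means. All whole-number solutions at 15 significant digits were listed by lattice enumeration, and the deposited fold change and SE chose among them. Counts were recovered for 19818 genes (99.9%), including all 40 members. Among the 14043 genes with an adjusted p and reads in each group, 13904 refitted the deposited log2 fold change within 0.00001. Since that fold change helped to choose the counts, this is not a separate check. The 22 genes without counts hold 12.9% of the summed mean. In a simulated table, with the steps known and reads in each group, all 2657 genes were recovered and right. The simulation did not cover genes without reads in a group, such as H19 and Dlk1. The size factors are 0.811 for L1, 0.809 for L2, 1.95 for H1 and 0.797 for H2, so H1 is the most precise library.

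Recovered counts gave values per library, negative binomial Wald refits, each gene keeping the dispersion implied by its deposited SE (scipy 1.17.1), also without each library in turn, and limma voom (3.58.1). Fits without 1 library assume that the lone library of a group varies like the others. A floor of 3 reads is the limit that a count of 0 allows, and floors cover counting error only. Exon lengths are unions of GENCODE M21 exons, of another build than mm9.

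All 40 members, and of other lists at least the called genes and the 3 with the smallest p, were named. Members and lists were chosen with earlier results of these data known.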

Additional observations from a re-analysis of the deposited data

How the results depend on the processing

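Peg10 was the 1 imprinted gene called. It stayed called in the refit with library totals, with every filter on the mean and at an adjusted p under 0.1. Limma voom did not call it (0 called). The refit with all libraries reuses the dispersion implied by the deposited SE and the same size factors. It therefore repeats the deposited call of Peg10 and is no separate check. Without each library in turn the count stayed at 1. Of the 30 imprint maintenance genes, 2 called as deposited became 0 with voom, 1 in the refit, 1 with no filter, and 0 to 1 without 1 library, and stayed 2 with library totals, a mean of at least 50 or an adjusted p under 0.1. Voom gave 7 of these 30 and 10 of the 31 other imprinted genes an unadjusted p under 0.05, against 10.2% of all genes. The 1 other imprinted gene called, Ntm, became 0 with voom. A filter at a mean of at least 50 removed Ntm before the test, since its mean was 36.19. Over all genes, 215 were called as deposited, 6 by voom, 209 in the refit, and 55, 78, 194 and 48 without H1, H2, L1 and L2. The causes were not tested.

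The median over the 32 tested genes was near 0 and changed sign, at -0.0325 over all 40, -0.0103 with library totals, and from -0.136 to 0.0544 without 1 library. Direction held for 18 of the 32 under all 7 settings, though the refit with all libraries could not turn it. It turned for 14 uncalled ones when a library was left out, with ranges of -0.18 to 0.23 for Kcnq1ot1, -0.32 to 0.52 for Meg3, -0.38 to 0.39 for Rian, -0.75 to 0.63 for Mirg, -0.41 to 0.86 for Usp29, -0.08 to 0.40 for Mkrn3, -0.04 to 0.34 for Zrsr1, -0.04 to 0.12 for Blcap, -0.14 to 0.08 for Igf2r, -0.08 to 0.20 for Grb10, -0.02 to 0.15 for Trappc9, -0.26 to 0.60 for Gnas, -0.15 to 0.22 for Mcts2 and -0.12 to 0.07 for H13. With library totals Meg3 and Mcts2 stood at -0.01 each. No paired analysis was possible because the labels number the replicates of each group but the table does not tie its values to those numbers. With 2 libraries a group, genes under about 10 reads allow no statement.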
